A study of Mus musculus with 3 samples.

Results

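The MYC, MAX, MNT and MXD network was described in the maxillary process of *Dlx2*-overexpressing mouse embryos at E10.5. Its 10 members were chosen by gene name: *Myc*, *Mycn*, *Mycl*, *Max*, *Mnt*, *Mxd1*, *Mxd3*, *Mxd4*, *Mxi1* and *Mlx*, out of 55401 genes in the count files. The study addressed what *Dlx2* overexpression does to the early maxillary process, and it named MNT through a DNA motif found at sites bound by DLX2. That motif concerns the letters under DLX2 peaks and not the mRNA of *Mnt*, which is what was measured here. All 3 libraries are Wnt1cre; Rosa26Dlx2/- (OE), untreated apart from dissection, and were prepared as separate RNA samples. In this model Cre under *Wnt1* control acts in the neural crest lineage and releases a CAG-driven, 3xFlag-tagged *Dlx2* at *Rosa26*. By this design, cells from outside that lineage, such as epithelium, endothelium and blood, are not meant to carry the active allele. Where it was active was not measured here. The age of the dams, the sex of the embryos and whether embryos were pooled are not given in the sources used here. No wild-type library was used, so the values below describe the OE side, and no difference between genotypes was tested.

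The network works through pairs of proteins. MYC, MYCN and MYCL cannot bind DNA alone. Each pairs with MAX through a helix-loop-helix and leucine zipper, and the pair binds the E-box and recruits acetyltransferases that activate transcription. MNT and the MXD proteins (MXD1, MXD3, MXD4 and MXI1) compete for the same partner and the same site, but they bring the SIN3 and HDAC corepressor. MLX is a MAX-like partner that also pairs with the glucose-sensing proteins MLXIP and MLXIPL. In the embryo, MYCN and MYC are known for driving growth and division of progenitors, and the neural crest is one of the tissues that needs them.

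The E-box was looked for in the RefSeq promoter windows of the members (GRCm38.p6, 250 bases before to 50 after each start), because it is the site that the network's own proteins bind. Of the 10 members, 9 matched a window, all but *Myc*. The letters CACGTG, which read the same on both strands, occurred in the windows of 4 of these 9 members: *Max*, *Mnt*, *Mxd4* and *Mlx*. Over all genes with a window, 8.09% held them, and 7.15% of all 32851 windows did. The stretches around the match are shown 5′ to 3′ on the strand of the gene, with the E-box in capitals.
Mnt, chr11:74830774-74830833, plus strand, E-box from -123: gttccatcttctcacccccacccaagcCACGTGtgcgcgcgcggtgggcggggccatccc
Mxd4, chr5:34187897-34187956, minus strand, E-box from -219: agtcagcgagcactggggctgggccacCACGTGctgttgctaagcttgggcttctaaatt
Mlx, chr11:101087223-101087282, plus strand, E-box from -40: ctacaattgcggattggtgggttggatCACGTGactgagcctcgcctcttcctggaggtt
Max, chr12:76962234-76962263, minus strand, E-box from -3: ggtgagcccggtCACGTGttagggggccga
The RefSeq start used for *Max* lies upstream of the first base of the gene in GENCODE M21, 76962201, and the last bases of this window were not found in the gene's annotated transcripts.
The core TAATTA, to which homeodomain proteins such as DLX2 can bind and which also reads the same on both strands, was in 0 of the 9 members' promoters, against 6.12% of all genes. A match is a run of letters and was not shown to be bound here, and no match says only that these letters are not in this window.

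The libraries held 36544554, 35351031 and 40057435 counts on genes in replicates 1, 2 and 3. Levels are given as CPM, the standard depth-scaled count, after TMM scaling of the library sizes, and 3 counts came to 0.0777 to 0.0843 CPM. *Dlx2* itself was at 235, 201 and 183 CPM, and these counts do not separate the *Rosa26* allele from the endogenous gene. The 8 facial mesenchyme markers were all at 1 CPM or more in every library, with a summed level of 1618, 1777 and 2270 CPM in replicates 1, 2 and 3. *Barx1* alone was at 332, 409 and 928 CPM, and 3 of the 8 were lowest in replicate 3. The libraries differed by gene length, with replicates 1 and 3 in opposite directions. Genes with up to 2000 exonic bases stood at a median of 0.64 (log2 ratio of replicate 3 to the mean of the other replicates), and genes over 8000 exonic bases at -0.56. The same medians were -0.45 and 0.40 for replicate 1, and -0.15 and 0.16 for replicate 2. Tissue markers also differed between libraries. The sum of the 9 neuron markers was 273, 24.3 and 35.9 CPM, that of the 7 eye and forebrain markers 25.03, 158 and 146, that of the 6 pigment cell markers 4.97, 33.7 and 155, and that of the 6 epithelial markers 340.5, 223 and 224. Of the 6 epithelial markers, 3 were highest in replicate 1 and lowest in replicate 3, as the MYC genes below were. They were *Epcam* (66.6, 45.8 and 30.3 CPM), *Cdh1* (48.1, 32.5 and 13.4) and *Trp63* (55.4, 29.6 and 11.4). The others did not follow that order. *Krt18* (86.7, 65.5 and 108 CPM) and *Krt5* (0.44, 0.48 and 1.25) were highest in replicate 3, and *Krt8* (83.2, 49.3 and 59.2) was lowest in replicate 2. The list's median log2 ratio in replicate 3 was -0.49, and -0.95 with the trend in length and GC content removed. The 4 blood markers summed to 1922, 3593 and 4233 CPM, the 4 endothelial markers to 218, 237 and 140, and the 4 macrophage markers to between 16.4 and 19.8. Every member comparison between libraries below stands beside these differences, whose part in it was not tested. In bulk tissue, fewer cells of a type and less RNA per cell cannot be told apart.

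*Mycn* (ENSMUSG00000037169, chromosome 12 of GRCm38, 12936093 to 12941914, minus strand), the MYC paralogue best known from neural and neural crest progenitors, was the most abundant member. It had 8187, 6328 and 5543 counts in replicates 1, 2 and 3, or 212, 178 and 147 CPM, with a mean of 179 ± 32.5 CPM (SD, n = 3). *Myc* (ENSMUSG00000022346, chromosome 15, 61985391 to 61990374, plus strand), the founding member of the family, was at 105, 95.1 and 61.6 CPM, with a mean of 87.1 ± 22.6 CPM (SD, n = 3). Replicates 1 and 2 were close for *Myc*, and replicate 3 was the low one. *Mycl* (ENSMUSG00000028654, chromosome 4, 122995652 to 123002485, plus strand), a paralogue with a weaker activating domain, was at 81.4, 55.5 and 40.8 CPM, with a mean of 59.2 ± 20.5 CPM (SD, n = 3). Here replicate 1 was the high library, and the highest value was 1.99 times the lowest. All 3 genes were highest in replicate 1 and lowest in replicate 3. No exonic base of these genes lies in an exon of another annotated gene.

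*Max* (ENSMUSG00000059436, chromosome 12, 76937269 to 76962201, minus strand), the partner shared by the MYC, MXD and MNT proteins, had 2523, 2248 and 1843 counts. Its level was 65.4, 63.2 and 48.9 CPM, with a mean of 59.2 ± 8.93 CPM (SD, n = 3). *Mlx* (ENSMUSG00000017801, chromosome 11, 101087277 to 101092207, plus strand) was the most even member between libraries. It had 739, 668 and 730 counts, or 19.1, 18.8 and 19.4 CPM, with a mean of 19.1 ± 0.308 CPM (SD, n = 3). Its coefficient of variation (SD over mean) of 1.61% lay at percentile 0.678 of the 17115 genes whose counts averaged 10 or more, called the genes tested. Of the exonic bases of *Mlx*, 19.3% lie opposite exons of *Psmc3ip*, which was at 32.7, 37.7 and 46.9 CPM.

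*Mnt* (ENSMUSG00000000282, chromosome 11, 74830920 to 74845725, plus strand), the broadly expressed antagonist of MYC, was at 48.5, 45.7 and 39.6 CPM, with a mean of 44.6 ± 4.55 CPM (SD, n = 3). Its highest value was 1.22 times its lowest. *Mxd4* (ENSMUSG00000037235, chromosome 5, 34173883 to 34187720, minus strand), linked to cells leaving the cycle, was at 42.2, 30.9 and 33.6 CPM. Replicate 1 was the high library for *Mxd4*, with replicates 2 and 3 close to each other. *Mxi1* (ENSMUSG00000025025, chromosome 19, 53310518 to 53375810, plus strand), the MXD protein encoded by several alternative first exons, was at 38.0, 34.2 and 29.7 CPM. Opposite-strand exons cover 6.06% of the exonic bases of *Mxd4* (*Gm42846*) and 2.84% of those of *Mxi1* (*Gm10197*), and both of these other genes had 0 counts in every library, which allows up to 0.0777 to 0.0843 CPM for 3 counts. *Mxd1* (ENSMUSG00000001156, chromosome 6, 86647042 to 86669161, minus strand), the first antagonist described and a marker of terminal differentiation, was at 15.4, 11.7 and 11.4 CPM and was the lowest member per kilobase of exons in every library.

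*Mxd3* (ENSMUSG00000021485, chromosome 13, 55325168 to 55329823, minus strand) went the other way. It encodes the MXD protein found in cycling progenitors, in contrast to its paralogues. It had 397, 476 and 1248 counts in replicates 1, 2 and 3, or 10.3, 13.4 and 33.1 CPM, with a mean of 18.9 ± 12.4 CPM (SD, n = 3). Without replicate 3 the mean was 12.2 CPM. Replicate 3 was 3.22 times replicate 1, the widest span of the 10 members, and its coefficient of variation of 65.5% lay at percentile 91.5 of all genes tested. The 8 cell cycle markers summed to 2980, 3033 and 2577 CPM in the same libraries. Of these, 6 were beyond counting noise and lowest in replicate 3, against 39.1% of all genes tested, whereas *Cdk1* was at 183, 192 and 260 CPM. Their median log2 ratio in replicate 3 was -0.31, and -0.04 with the length and GC trend removed. Exons of *Prelid1* on the opposite strand cover 4.43% of the exonic bases of *Mxd3*, and *Prelid1* was at 308, 365 and 518 CPM.

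**Figure D1:**
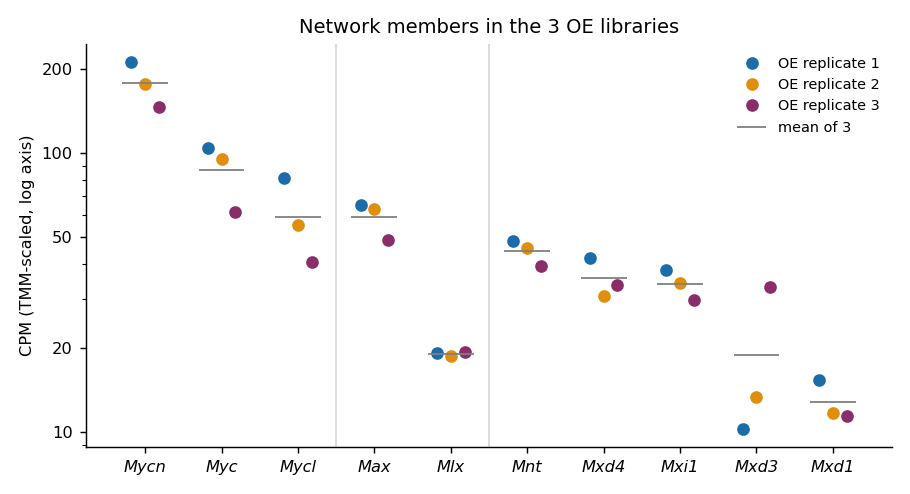
CPM on a log axis of each member in OE replicates 1, 2 and 3 (points), with the mean of 3 as a grey line. MYC family genes are on the left, *Max* and *Mlx* in the middle and the genes for repressing partners on the right. The purple points of replicate 3 lie lowest for 7 members and far above the others for *Mxd3*, at 33.1 against 10.3 and 13.4 CPM.

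Counts of 2 genes can be compared only after division by length, so CPM per kilobase of all annotated exons was used to order the members. *Mycn* led with 54.3 ± 9.87 CPM per kilobase (SD, n = 3), followed by *Myc* with 32.1 ± 8.31, *Max* with 16.4 ± 2.48 and *Mycl* with 14.7 ± 5.08. Then came *Mnt* with 9.63 ± 0.983, *Mlx* with 9.55 ± 0.154, *Mxd3* with 7.99 ± 5.23, *Mxi1* with 4.98 ± 0.609, *Mxd4* with 4.19 ± 0.697 and *Mxd1* with 1.82 ± 0.312. Among the protein-coding genes tested, *Mycn* stood at percentile 93.8 by level per kilobase, *Myc* at 88.3, *Max* at 77.3, *Mnt* at 65.7 and *Mxd1* at 32.2. The ranges over the 3 libraries did not overlap between *Mycn* and *Myc*, between *Myc* and *Max*, or between *Mxd4* and *Mxd1*. The ranges of the other 6 pairs of neighbours overlapped. Within libraries, *Mycl* stood above *Mnt* and *Mxi1* above *Mxd4* in 3 of 3, and the other 4 of these pairs held their order in 2 of 3. *Mnt* and *Mlx*, for example, had a ratio of means of 1.01.

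The order also depended on the length used. With coding length, *Max* moved to 119.7 CPM per kilobase, place 2 behind *Mycn* at 129, and *Mxd4* moved from place 9 to place 4. *Mnt* went from place 5 to place 9, since 2107 of its 4627 exonic bases code for protein, against 627 of 8483 for *Mxd4*. *Mycn* in place 1 and *Mxd1* in place 10 held under all 3 lengths (all exons, coding bases and the longest transcript). Gene-level counts do not say which transcripts were present, and *Mxi1* has 9 annotated transcripts.

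**Figure D2:**
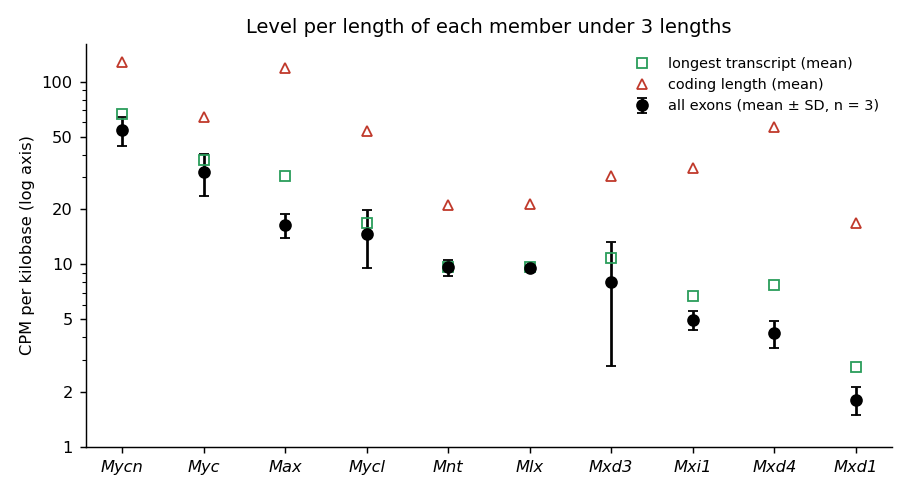
CPM per kilobase on a log axis of the 10 members, with black points for all annotated exons (mean ± SD over 3 libraries), green squares for the longest transcript and red triangles for coding length. *Mycn* is highest and *Mxd1* lowest under each length, while *Max* and *Mxd4* climb with coding length.

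Summed over the family, the MYC genes were at 123, 103 and 77.4 CPM per kilobase of exons in replicates 1, 2 and 3. *Mycn* made up 52.3%, 52.5% and 57.7% of that sum, and *Myc* 31.3%, 34.1% and 29.3%. The 5 genes for repressing partners were at 27.5, 25.8 and 32.5 CPM per kilobase. Their makeup changed between libraries. *Mnt* held 38.0%, 38.2% and 26.3% of the sum, and *Mxd3* 15.8%, 21.9% and 43.1%. With coding length, *Mnt* held 13.9%, 15.3% and 11.0%, and *Mxd3* 10.1%, 15.2% and 31.4%.

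The ratio of the MYC family to the repressing partners per kilobase was 4.47, 3.98 and 2.38, with a mean of 3.61 ± 1.09 (SD, n = 3). Replicate 3 was the low library. Without *Mxd3* in the sum the ratio was 5.30, 5.09 and 4.19, so the span between the highest and lowest library went from 1.87-fold to 1.27-fold. With coding length the ratio was 1.84, 1.75 and 1.10, and with the longest transcript 4.04, 3.66 and 2.15. The size of the ratio is therefore set by the length used, whereas replicate 3 was lowest under all 3 lengths. *Max* came to 0.121, 0.137 and 0.124 of the sum of its MYC, MXD and MNT partners per kilobase, and to 0.282, 0.328 and 0.276 with coding length. These are ratios of mRNA and not of protein, and MGA, another MAX partner, was not in the sum. No test was run on these ratios, since all 3 libraries belong to 1 group.

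**Figure D3:**
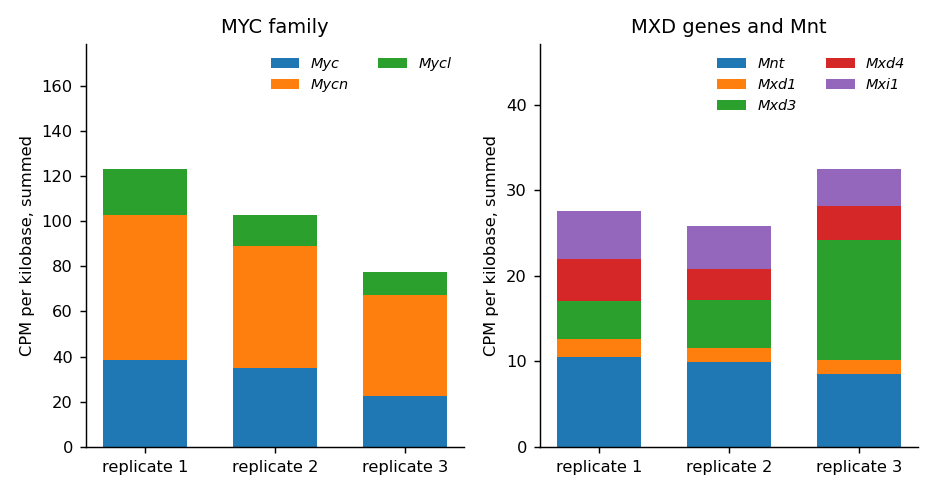
Summed CPM per kilobase of exons for the MYC family (left) and for *Mnt* and the MXD genes (right) in the 3 OE libraries, with 1 colour per gene and each axis starting at 0. The MYC sum is 123 in replicate 1 and 77.4 in replicate 3, and the *Mxd3* share of the right-hand sum is 43.1% in replicate 3.

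Whether the libraries differed by more than sampling noise was tested per gene (a chi-square test on counts given each library's TMM-scaled size, with Benjamini-Hochberg adjustment over 17115 genes). Of the 10 members, 9 were beyond counting noise, where 81.5% of all genes tested were. *Mlx* was the exception (adjusted p = 0.846). The members called included 7 that were lowest in replicate 3, against 39.1% of all genes tested, and 1 that was highest there, *Mxd3*, against 36.4%. Since most genes passed this test, passing it does not set the members apart. Without replicate 1, *Mxd1* (adjusted p = 0.722) and *Mxd4* (adjusted p = 0.0531) were no longer called in the chi-square test, and without replicate 3 *Max* (adjusted p = 0.337) and *Mnt* (adjusted p = 0.138) were not.

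The usual spread between these libraries is wider than counting noise. The biological coefficient of variation, the relative SD between replicates beyond counting error, was 0.371 over all genes (edgeR, intercept-only model). It was 0.221 without replicate 3. The common value was estimated from these same 3 libraries, and 9 of the 10 members had a value below it. A test against it can hardly call such genes, so no conclusion is drawn from it. Against noise with the common value, 0 members and 0 other network genes were beyond it by the adjusted p, and 0.964% of all genes were. At an unadjusted p under 0.05, 1 member and 0 other network genes were, beside 6.79% of all genes tested. That member was *Mxd3*, with an adjusted p of 0.715 at edgeR's common dispersion. The median coefficient of variation (SD over mean) was 16.9% over the members and 26.96% over all genes tested. This measure includes counting error. The genes tested start at a mean count of 10, whereas the lowest member count was 397. The medians, and the percentiles of this measure given above, are therefore not matched for abundance.

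The length trend of replicate 3 touched the members. As measured, the log2 ratio of replicate 3 to the mean of the others was -0.40 for *Mycn*, -0.69 for *Myc* and -0.72 for *Mycl*. Once the dependence on exonic length and on GC content had been fitted and subtracted, these were -0.68, -0.98 and -0.96, at percentiles 13.5, 7.57 and 7.89 of all genes. *Mnt* moved from -0.25 to -0.56, and *Max* from -0.39 to -0.35. The long genes *Mxd1*, *Mxd4* and *Mxi1* turned from -0.24, -0.10 and -0.28 to 0.018, 0.24 and 0.17. Their ratios below 0 in replicate 3 thus did not hold with the trend removed. *Mxd3*, with 2369 exonic bases, moved from 1.49 (percentile 95.7) to 1.00 (percentile 93.1) and remained the highest member. *Mlx* moved from 0.032 to -0.22. With the trend removed, the 3 MYC genes lay between -0.98 and -0.68, and *Mnt* and the 4 MXD genes between -0.56 and 1.00.

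**Figure D4:**
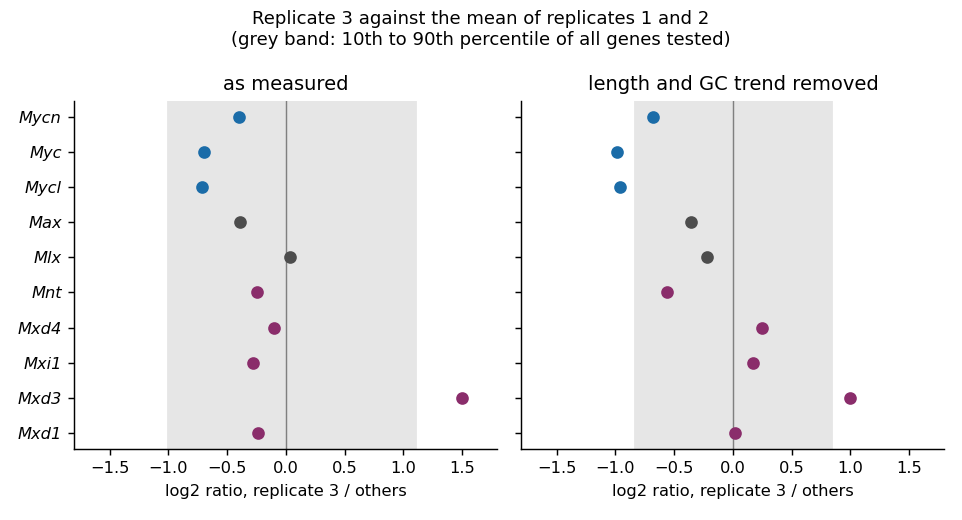
Log2 ratio of replicate 3 to the mean of replicates 1 and 2 for each member, as measured (left) and with the length and GC trend removed (right). Blue points are MYC genes, purple points *Mnt* and the MXD genes, dark grey points *Max* and *Mlx*, and the light grey band holds the 10th to 90th percentile of all genes tested. *Mxd3* lies right of the band in both panels, and *Myc* and *Mycl* lie left of it only on the right.

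Of 75 other genes of the network, 73 were tested, and 69 of these were beyond counting noise, again beside 81.5% of all genes. Of the genes called, 40 were lowest in replicate 3 and 27 highest there, where 39.1% and 36.4% of all genes tested were called and so placed. Among 6 related DNA-binding proteins, the E-box factors *Usf1* (119, 141 and 262 CPM) and *Usf2* (34.8, 44.2 and 73.2) were highest in replicate 3, with log2 ratios there of 1.02 and 0.90 as measured and 0.61 and 0.41 with the length and GC trend removed. The MLX partner *Mlxipl* was low, at 5.42, 7.78 and 12.8 CPM. *Mycs*, a *Myc*-like gene, had 0 counts in every library, which allows the same 0.0777 to 0.0843 CPM. Of the others, named after their values were seen, the MAX partner *Mga* was at 95.3, 79.3 and 41.1 CPM and the MLX partner *Mlxip* at 86.2, 79.99 and 59.1, both lowest in replicate 3. Their log2 ratios there were -1.08 and -0.49 as measured, and -0.30 and -0.33 with the trend removed.

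The same shares of all genes tested stand beside the counts of each list that follows. All 11 corepressor genes were beyond counting noise, 7 of them lowest in replicate 3. By level per kilobase *Rbbp7* (107) and *Hdac2* (77.1), a histone chaperone and a histone deacetylase, led, and *Ncor1* (9.67) came last. *Ncor1* was at 163, 133 and 76.0 CPM, whereas *Hdac2* was at 352, 350 and 333. Of 12 coactivator genes 11 were beyond counting noise. The exception was the acetyltransferase gene *Crebbp* (70.2, 68.9 and 66.6 CPM, adjusted p = 0.188), whose paralogue *Ep300* was at 95.9, 77.3 and 32.6 CPM. *Ruvbl1* (105 CPM per kilobase) and *Ruvbl2* (104), the paired ATPases of acetyltransferase complexes, were the most abundant per kilobase. Of the exonic bases of *Ruvbl2*, 15.4% lie in exons of another gene. The 10 genes for turnover of MYC were all called. The kinase gene *Aurka*, whose product stabilises MYCN, was at 128, 137 and 139 CPM. *Fbxw7*, the ubiquitin ligase that marks MYC and MYCN for breakdown, was the lowest per kilobase, at 27.4, 26.3 and 30.2 CPM.

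Genes known to be activated by MYC were abundant. Their median level was 56.5 CPM per kilobase, against 3.45 over all genes tested. The lists of corepressor, coactivator and turnover genes also stood above that background, at 25.39, 19.75 and 16.58. The cell type lists lay on both sides of it. Whether the level of the targets reflects MYC activity was not tested. *Npm1*, a nucleolar chaperone of ribosome assembly, was at 2709, 2442 and 2269 CPM, and *Ldha*, a glycolytic enzyme, at 1819, 1738 and 1964. *Tert* was at 24.1, 26.9 and 18.2 CPM. *Nme2* was listed at 0.596, 1.07 and 1.46 CPM, but 48.9% of its exonic bases lie in exons of another gene, so its count is uncertain. Of 26 such genes 25 were beyond counting noise, 15 of them lowest and 10 highest in replicate 3, with a median log2 ratio of -0.16 there against -0.03 over all genes. The median with the length and GC trend removed was 0.033, against 0.012 over all genes.

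Genes known to be repressed by MYC had a median level of 3.42 CPM per kilobase, beside 3.45 over all genes tested. Of these genes, 5 of the 7 tested were beyond counting noise. *Gas1*, a growth arrest gene with roles in hedgehog signalling, was the most abundant per kilobase, at 164, 172 and 201 CPM, and 19.9% of its exonic bases lie in exons of another gene. *Cdkn1b*, which encodes the cycle inhibitor p27, was at 42.9, 30.1 and 23.1 CPM, and its log2 ratio in replicate 3 was -0.64 as measured and -0.23 with the trend removed. *Ndrg1* was at 2.93, 1.798 and 1.54 CPM, and *Cdkn2b*, with 8, 0 and 7 counts, was not tested. The 2 targets of MLX with MLXIP, *Txnip* (28.2, 26.2 and 19.2 CPM) and *Arrdc4* (28.0, 26.6 and 14.4), were both lowest in replicate 3.

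**Figure D5:**
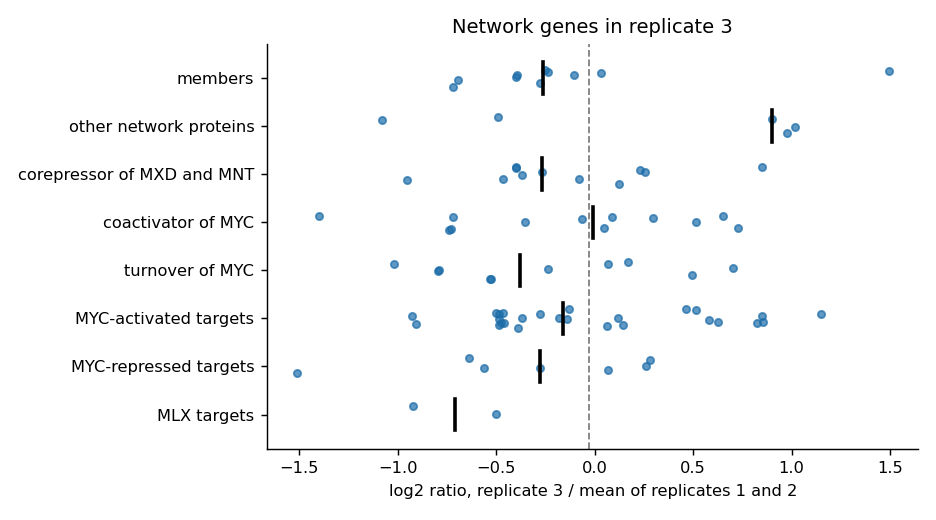
Log2 ratio of replicate 3 to the mean of replicates 1 and 2 for the members and the other lists (1 point per gene tested). Black bars are list medians and the dashed line is the median of all genes tested, -0.03. The members' points lie from -0.72 to 1.49, and MYC-activated targets lie on both sides of the line.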

How the data were processed

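RNA from dissected E10.5 maxillary processes of 3 OE samples was sequenced as poly(A)-selected, paired-end libraries. FastQC, STAR 2.7.3a, HTSeq 0.12.4 and the mm10 genome are named in the submitters' processing notes. The strand setting and annotation release are not given in the sources used here, and the kit named does not mark strand. The authors deposited raw counts per gene as whole numbers. The 5 rows that name no gene held 14.2% to 16.4% of counts and were left out. Replicates were numbered in accession order. Whether the samples came from separate litters is not stated, so the spread may be partly technical.

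Identifiers were matched to GENCODE M21 (55141 of 55401). TMM scaling, CPM, log2 ratios (prior count of 2) and dispersions used edgeR 4.0.16. Counting noise was tested with a chi-square test per gene over genes whose counts averaged 10 or more (Benjamini-Hochberg, 0.05), after being tested on simulated data. DESeq2 1.42.0 gave alternative size factors, mgcv 1.9.3 the trend on exonic length and on GC content of the longest transcript, and R 4.3.3 was used. All 10 members were named, with at most the 2 highest and 2 lowest genes per kilobase of each other list, apart from an item not reported here and from *Mga* and *Mlxip*, named after their values were seen. Members and lists were chosen with earlier results of these data known. Counting error alone was at most 5.02% for a member's count.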

Additional observations from a re-analysis of the deposited data

How the results depend on the processing

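The 55 results were recomputed 231 times in all, and 191 of these values moved by less than the replicate SD or, for counts, by less than 1.5 times. The members beyond counting noise were 9 under the 3 other scalings and both other filters and from 7 to 9 when 1 replicate was left out. The share of all genes was 81.4% to 82.2% under the scalings, 53.4% with no filter, 91.2% at a mean count of 100, and 71.2%, 77.7% and 48.8% without replicates 1, 2 and 3. The other network genes were from 67 to 70 under those scalings and filters and from 52 to 69 when 1 replicate was left out. With negative binomial noise at the common dispersion both counts were 0, as that noise is wider by construction. The common biological coefficient of variation ran from 0.221 to 0.474 when 1 replicate was left out, an alternative added after the data were seen. The ratio of the MYC family to *Mnt* and the MXD genes was 1.56 with coding length, and that of *Max* to its partners was 0.295 with coding length and 0.192 with the longest transcript, against 0.127. These follow from the lengths themselves. In 10 cases a log2 ratio changed sign. With DESeq2 scaling it was *Mycn* in replicate 2 (-0.0095). With the length and GC trend removed they were *Mycl* in replicate 2 (0.039), *Mxd1* (0.018), *Mxd4* (0.24) and *Mxi1* (0.17) in replicate 3, *Mxi1* in replicates 1 (-0.059) and 2 (-0.11), and *Mlx* in replicates 2 (0.021) and 3 (-0.22). Without scaling, *Mlx* in replicate 3 was at -0.10. Without scaling, the median of all genes in replicate 3 shifted by -0.13 on the log2 scale. With 3 libraries of 1 genotype, no value bears on a difference from wild type.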
